A study of Mus musculus with 24 samples.

Results

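Neuroblastomas of IGF2BP1 transgenic mice (TI, n = 8) were compared with normal adrenal glands (AG, n = 3) by poly(A)-enriched, strand-specific RNA-seq. These 11 libraries were all TI and AG libraries among the 24 libraries of the study and were chosen by group label alone, without use of measured values. TI mice carried a human IGF2BP1 reading frame with a reporter behind a stop cassette that Cre recombinase removes, inserted at Rosa26. Cre was driven by the promoter of Dbh, the gene of dopamine beta-hydroxylase, which is active in the sympatho-adrenal lineage, on a C57Bl6/N background. The labels gave 7 TI tumors as IGF2BP1 +/+, CRE + and 1 as IGF2BP1 +/-, CRE +, whereas AG came from CRE - mice. No drug was given, and the ages of the animals were not given in the labels. One TI sample was labelled as a tumor of the adrenal gland and the others only as tumor, and the study places most IGF2BP1 tumors in the lower abdomen. Pieces of frozen whole tissue were lysed, so each library is a mixture of cell types.

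IGF2BP1 is an RNA-binding protein of the fetal period that shields target mRNAs from microRNAs and decay and is silent in most adult tissues. Neuroblastoma arises from sympatho-adrenal progenitors of the neural crest, which form sympathetic neurons and the chromaffin cells of the adrenal medulla. The adrenal gland also holds a large cortex of mesodermal origin that makes steroid hormones, so a tumor of the medullary lineage is here set against an organ that is mostly of another lineage. In bulk tissue, fewer cells of a type and less RNA per cell cannot be told apart, and this holds for every gene below.

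AG and TI libraries held 12468968 to 21353172 recovered reads and 6464 to 7073 genes with at least 1 FPKM (fragments per kilobase of gene and normalized to library size). Genes were tested with limma on log2(FPKM + 1) when at least 3 of the 11 libraries reached 1 FPKM, which left 8603 of 21833 genes. A gene was called at a false discovery rate (FDR) below 0.05, and fold changes are differences of mean log2(FPKM + 1), TI minus AG, which understate the change of genes with low values. The labels place the 3 AG samples and 6 TI samples in run 1, 1 TI sample in run 2 and 1 in run 3. The columns could not be tied to single samples, so no comparison was repeated within a run, and zygosity or tumor site could not be assigned to a library. Libraries are therefore numbered only in the order of the columns.

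The mouse Igf2bp1 locus was nearly silent in both groups. Its values were 0.00259 FPKM on average in AG and 0.010 FPKM in TI, where they ranged from 0 to 0.0157 FPKM (exact two-sided permutation test, p = 0.0424). The study described Igf2bp1 as elevated in these tumors from row-scaled values, which do not show the level. The table holds mouse genes only and no feature for the human reading frame, so the transgene itself was not measured. Igf2bp2, a related gene, was at 0.128 FPKM in AG and 0.0157 FPKM in TI, without overlap (exact permutation p = 0.00606, the smallest that 165 assignments of 8 and 3 libraries allow).

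Most tested genes differed between tumors and glands. The limma test called 5229 of 8603 genes (60.8%), of which 2506 were higher in TI (29.1% of the genes tested) and 2723 lower (31.7%). Every TI library lay above every AG library for 2252 genes (26.2%) and below for 2401 genes (27.9%). The median log2 fold change over all tested genes was 0.01. The median among higher genes was 0.86 and among lower genes -0.89. A log2 fold change of at least 3 was reached by 72 higher genes and 113 lower genes. Counts of a gene list below are to be read against these shares. A gene below 1 FPKM in all tumors could pass the filter only through the 3 glands. One below 1 FPKM in all glands could pass only through tumors. The direction of such genes is largely set by the filter.

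**Figure D1:**
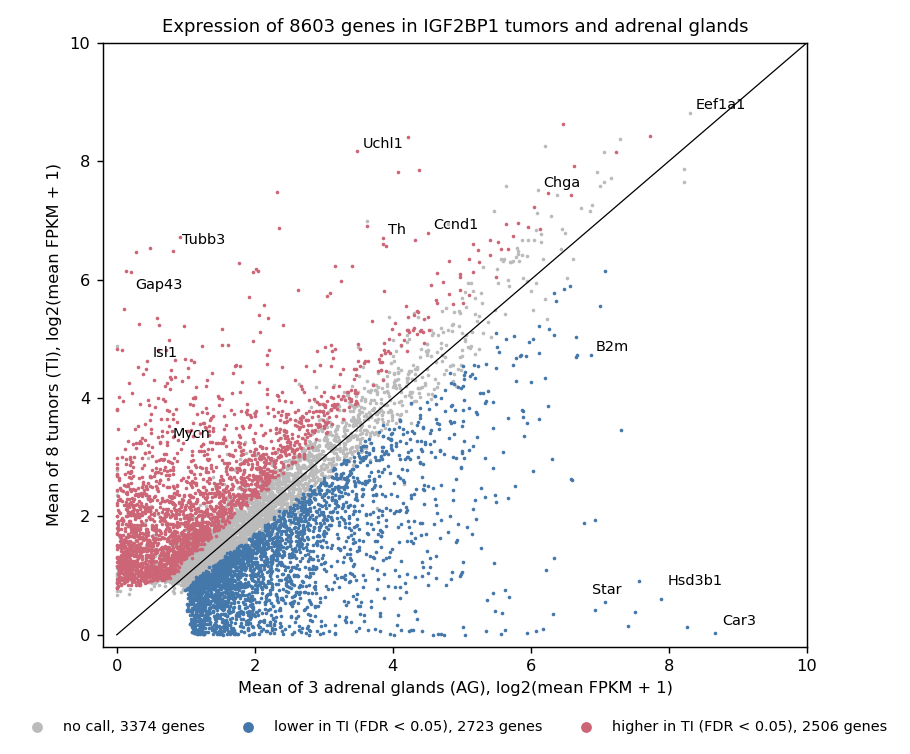
Each point is 1 of the 8603 tested genes, with log2(mean FPKM + 1) over the 3 AG libraries on the x axis and over the 8 TI libraries on the y axis. The 2506 higher genes lie above the diagonal line of equal means (Tubb3 and Gap43 near the left edge), and the 2723 lower genes lie below it (Star, Hsd3b1 and Car3 near the lower edge).

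Tumors were less alike than glands. Pearson correlations over the tested genes had a median of 0.986 between AG libraries (3 pairs), 0.92 between TI libraries (28 pairs) and 0.553 between AG and TI libraries (24 pairs). The standard deviation of log2(FPKM + 1) was larger in TI than in AG for 95.1% of genes. TI library 6 correlated least with the other tumors (median 0.856), followed by TI library 4 (0.887). These 2 libraries also had the highest scores on the second principal component (32.7 and 27.7), which carried 9.32% of the variance, where the other tumors ranged from -25.2 to 5.54. The first component (73.6%) separated all AG (-74.7 to -70.5) from all TI libraries (8.41 to 34.7). Where leaving out either library changed the call of a gene named below, this is stated beside the gene.

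The sex of the animals was not in the labels, and Y-linked genes, looked at after their values were seen, differed between the groups. Ddx3y, an RNA helicase encoded on the Y chromosome, was listed at 0 in all 3 AG libraries and in TI library 6, at 0.587 FPKM in TI library 7 and at 2.95 to 13 FPKM in the other 6 tumors. Eif2s3y, Kdm5d, Uty and Uba1y were likewise at 0 in all AG libraries and in TI library 6. For 7 of 8 tumors, effects of group and of Y-linked reads cannot be told apart. In TI library 6, which lacked them as AG did, Star was at 1.69 FPKM and Tubb3 at 27.8 FPKM. In AG they were at 178 to 184 FPKM and 0.651 to 0.918 FPKM. These are values of a single library, and an effect of sex was not tested. With limma-voom on recovered reads, the calls of Ddx3y, Eif2s3y, Kdm5d and Uty were lost.

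Most tested genes of the adrenal cortex were lower in the tumors, and several key enzymes were at or near 0. Of 11 tested steroid synthesis genes, 10 fell and 0 rose (median log2 fold change -4.05). The exception was Stard3, a cholesterol carrier of late endosomes, with a log2 fold change of 0.20 (limma FDR 0.128), which was called higher without TI library 4 (limma FDR 0.0394). Of 17 tested genes of cortex identity and the response to ACTH, the pituitary hormone that drives the cortex, 16 fell (median -2.57). Apoe, which carries cholesterol and is also made by macrophages, was not called (log2 fold change -0.36).

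Cholesterol enters steroid synthesis through Star, the protein that delivers it to the inner mitochondrial membrane (ENSMUSG00000031574, chromosome 8, 26296583 to 26306010 in GRCm39). Star was at 178, 184 and 183 FPKM in the 3 AG libraries and between 0.0151 and 1.69 FPKM in TI (median 0.0391). Every tumor was far below every gland, and the log2 fold change was -7.22 ± 0.26 (SE; limma FDR 1.81e-10). Cyp11a1, which cleaves the cholesterol side chain in the first enzymatic step, was at 15.4 to 17.0 FPKM in AG and at most 0.367 FPKM in TI. Hsd3b1, the next enzyme of the pathway (ENSMUSG00000027871, chromosome 3, 98757367 to 98767116), was at 247, 236 and 220 FPKM in AG and was listed at 0 in 6 of 8 tumors, with 3.19 FPKM as the highest value. Its log2 fold change of -7.50 ± 0.40 (limma FDR 6.98e-09) was the largest fall among steroid synthesis genes. Cyp21a1, the 21-hydroxylase, and Cyp11b1, which completes corticosterone, were at 131 to 139 FPKM and 76.2 to 81.9 FPKM in AG. In TI both had a median of 0, with highest values of 2.94 and 1.64 FPKM. The groups did not overlap for any of these genes.

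The regulators of the cortex behaved like its enzymes. Nr5a1, which encodes the transcription factor SF-1 that specifies steroid-producing cells, was at 8.31, 7.66 and 7.91 FPKM in AG and at 0 to 0.13 FPKM in the tumors (log2 fold change -3.13 ± 0.07; limma FDR 4e-12). Mc2r, the ACTH receptor, was at 4.18, 3.40 and 3.40 FPKM in AG and did not exceed 0.134 FPKM in any tumor. Akr1d1, a steroid 5-beta-reductase, fell from 162 to 180 FPKM in AG to at most 0.869 FPKM in TI. Scarb1, the receptor that takes up cholesterol from lipoproteins, and Soat1, which stores it as esters, fell by 3.89 and 3.44 on the log2 scale. All tumors lay below all glands for these genes.

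The outer zone and the capsule followed the same direction with 1 exception. Of 11 tested zona glomerulosa and capsule genes, 10 fell and 1 rose (median -1.5). Wnt4, a ligand that maintains zona glomerulosa identity, was at 12.3 to 14.2 FPKM in AG and at 0.0157 to 0.136 FPKM in the tumors (log2 fold change -3.75; limma FDR 3.29e-12). Shh, made by progenitors under the capsule, was at 4.98 to 6.16 FPKM in AG and at most 0.0491 FPKM in TI. The riser was Kcnk9, a background potassium channel, named because it stood alone. It increased from 1.43 to 1.76 FPKM in AG to 2.72 to 11.2 FPKM in the tumors (log2 fold change 1.18 ± 0.30; limma FDR 0.00508), while its relative Kcnk3 fell.

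Cortex transcripts were not equally low in all tumors. TI library 6 had the highest value among tumors for Star (1.69 FPKM), Hsd3b1 (3.19), Cyp21a1 (2.94), Cyp11b1 (1.64), Akr1b7 (4.58) and Adh1 (5.09). TI library 7 came second for Hsd3b1 (0.974), Cyp21a1 (0.769) and Cyp11b1 (0.512). The other 6 tumors were at most at 0.00429 FPKM for these 3 enzymes. One TI sample carried an adrenal gland label, but which library it was could not be established. Without TI libraries 4 and 6, the steroid synthesis list counted 10 lower genes and 1 higher gene, Stard3.

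AG also held fat. Of 12 tested adipocyte markers, 11 fell and 0 rose in TI (median -3.76). Several, such as Car3, Cfd and Ucp1, were below 1 FPKM in every tumor and passed the filter only through the glands. Their count is therefore no independent evidence of a direction. Car3, a carbonic anhydrase abundant in adipocytes, was at 111, 471 and 631 FPKM in the 3 AG libraries and at most 0.106 FPKM in TI, which made it the largest fall of all genes without overlap (log2 fold change -8.30 ± 0.37; limma FDR 1.52e-09). Its standard deviation of log2(FPKM + 1) was 1.33 in AG and 0.05 in TI. The SE assumes the same spread in both groups, so it understates the spread between glands here. Cfd, the adipokine adipsin, was at 39.8, 358 and 520 FPKM in AG and at most 0.305 FPKM in TI. Ucp1, the uncoupling protein of brown fat, was at 3.90, 52.1 and 62.8 FPKM in AG and at most 0.169 FPKM in TI. AG library 1 was lowest for each of these markers, so the glands differed in their fat transcripts while their cortex genes were alike. The summed level of the 14 adipocyte markers was 227 to 1542 FPKM in AG and 4.19 to 13.7 FPKM in TI. The part of fat in other falls, such as those of metabolic genes, was not tested.

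Transcription factors of the adrenergic lineage were higher in the tumors than in whole adrenal glands. Of 20 tested factors, 17 rose and 0 fell (median log2 fold change 2.38). Isl1, a LIM homeobox factor of sympathetic neuroblasts, rose from 0.331 to 0.400 FPKM in AG to 11.6 to 47.8 FPKM in the tumors (log2 fold change 4.06 ± 0.35; limma FDR 7.48e-07). Hand2, a bHLH factor needed for noradrenergic differentiation, was at 8.03, 5.51 and 9.0 FPKM in AG and 32.5 to 64.5 FPKM in TI. Tfap2b and Lmo1, which are neural crest and neuroblastoma regulators, rose by 3.36 and 3.32 on the log2 scale.

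Other factors of the lineage spread widely between tumors. Phox2a ranged from 9.11 to 107 FPKM in TI against 4.92 to 5.50 FPKM in AG (log2 fold change 2.82 ± 0.65; limma FDR 0.00258). Insm2, a zinc finger gene of neuroendocrine cells, was at 2.83 to 26.6 FPKM in 7 tumors and at 0.0143 FPKM in TI library 6, below AG (0.209 to 0.350 FPKM). It was called higher (log2 fold change 3.07), though not with limma-voom on recovered reads (FDR 0.412), and without TI library 6 the log2 fold change was 3.56 (limma FDR 4.59e-05). Gata3, a regulator of sympathetic survival, was not called: it was at 1.81 to 2.28 FPKM in AG and at 0.567 to 14.5 FPKM in TI, with TI libraries 1 and 6 below all glands (limma FDR 0.119, and 0.0169 without TI library 1). Hand1 and Tlx2 were not called either. Hand1 was at 13.1 FPKM in TI library 6 and at most 2.70 FPKM in the other tumors, against 0.395 to 0.547 FPKM in AG, and its log2 fold change was 0.30 with and -0.12 without that library (limma FDR 0.728 and 0.804).

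The enzymes of catecholamine synthesis differed by step. Of 14 tested genes of synthesis, storage and breakdown, 4 rose and 3 fell (median 0.52). These shares of 28.6% and 21.4% did not exceed the 29.1% and 31.7% over all tested genes. Th, the rate-limiting tyrosine hydroxylase, was at 15.2, 9.72 and 15.6 FPKM in AG and at 18.1 to 235 FPKM in TI (median 95.7). All tumors exceeded all glands, TI libraries 2 and 3 only slightly, and the log2 fold change was 2.45 ± 0.68 (limma FDR 0.00793). Ddc, which forms dopamine, rose from 2.02 to 2.52 FPKM in AG to 13.6 to 32.0 FPKM in TI. Dbh, whose promoter drove Cre, rose from 10.9 to 15.7 FPKM to 21.5 to 246 FPKM (log2 fold change 2.36 ± 0.56; limma FDR 0.00301). Slc18a2, the vesicular monoamine transporter, rose from 0.476 to 0.676 FPKM to 6.22 to 22.2 FPKM (log2 fold change 3.18).

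The last step, from noradrenaline to adrenaline, did not follow. Pnmt, which catalyses it in chromaffin cells, was at 1.78, 1.07 and 2.01 FPKM in AG. It was at 0.00713 to 0.0519 FPKM in 4 tumors, at 0.901 FPKM in 1 and at 3.55, 9.34 and 28.8 FPKM in TI libraries 4, 7 and 6 (log2 fold change 0.07 ± 0.96, and -0.43 without TI library 6, not called in either case). Pts, which makes a cofactor of tyrosine hydroxylase, fell from 1.47 to 1.58 FPKM in AG to 0.371 to 0.694 FPKM in the tumors. Maob, a monoamine oxidase, was called lower (log2 fold change -0.64; limma FDR 0.0364), but not without AG library 2 or 3 or TI library 1, 3, 4 or 7 (limma FDR 0.0502 to 0.184). Slc6a2, the noradrenaline transporter, was at 1.11 to 1.46 FPKM in AG and 0.792 to 10.1 FPKM in TI and was not called. With all 24 libraries of the study setting the spread, Th lost its call (limma FDR 0.0569).

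**Figure D2:**
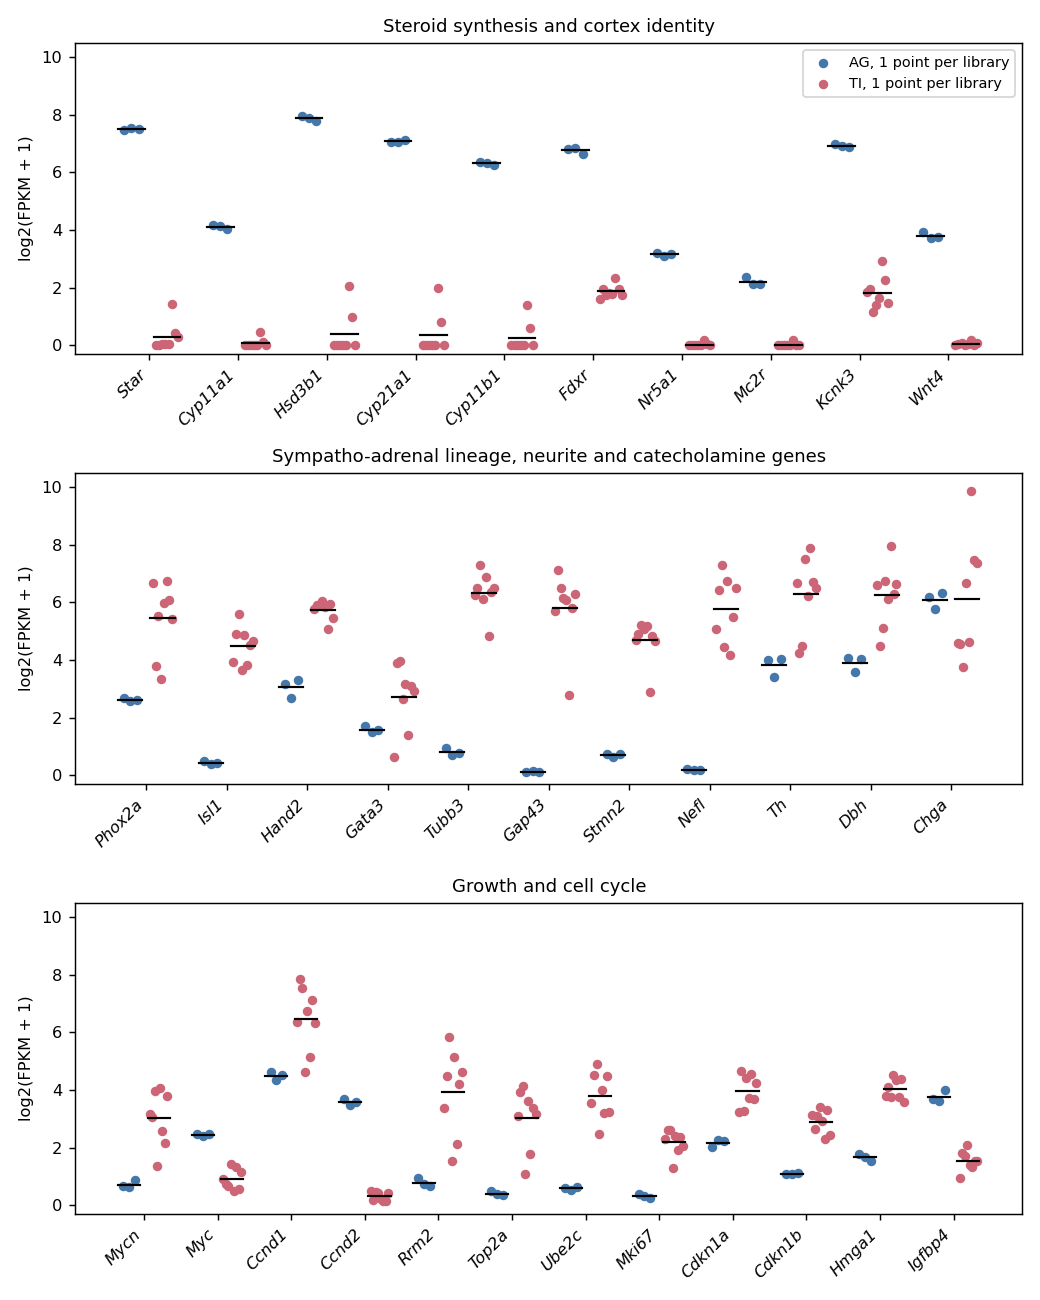
The y axis gives log2(FPKM + 1), each point is 1 library (blue, 3 AG; red, 8 TI), and black lines are group means. Cortex genes such as Star (178 to 184 FPKM in AG, at most 1.69 in TI) sit near 0 in the tumors, lineage and neurite genes such as Isl1 and Tubb3 are higher in every tumor, and Chga and Gata3 overlap between the groups.

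Genes of neurites and the neuronal cytoskeleton had the largest median rise of the lists. Of 30 tested genes 29 rose and 0 fell (median 3.56), and for 29 of them every tumor lay above every gland. Tubb3, the neuronal beta-tubulin (ENSMUSG00000062380, chromosome 8, 124138163 to 124150092), was at 0.918, 0.651 and 0.726 FPKM in AG and at 27.8 to 158 FPKM in TI (median 85.4). Its log2 fold change was 5.53 ± 0.38 (limma FDR 9.22e-08). Gap43, a protein of growth cones, was at 0.0734 to 0.125 FPKM in AG and 5.84 to 139 FPKM in TI, with TI library 6 far below the next tumor at 51.3 FPKM (log2 fold change 5.67 ± 0.67; limma FDR 1.31e-05). Basp1, another growth cone protein, rose from 0.732 to 1.2 FPKM to 17.6 to 159 FPKM, again with TI library 6 lowest. Nefl and Nefm, light and medium neurofilament chains, rose by 5.57 and 4.96 on the log2 scale.

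Stmn1 and the ubiquitin hydrolase Uchl1 were among the most abundant of these transcripts. Stmn1, which destabilises microtubules and is high in dividing and migrating cells, rose from 3.33 to 4.81 FPKM to 39.7 to 338 FPKM. Uchl1, the neuronal deubiquitinase PGP9.5, was at 11.3, 9.26 and 9.89 FPKM in AG and 197 to 421 FPKM in the tumors (log2 fold change 4.64 ± 0.26; limma FDR 1.14e-08), and was among the 10 genes with the highest mean level in the tumors. Mapt, the tau gene, was at 5.75 to 6.21 FPKM in AG, at 3.07 FPKM in TI library 6 and at 10.3 to 21.2 FPKM in the other tumors. It was not called (limma FDR 0.065) but was without TI library 6 (limma FDR 0.000354). The mean log2(FPKM + 1) of the 30 genes was 0.99 to 1.11 in AG, 3.48 in TI library 6 and 4.54 to 5.26 in the other 7 tumors.

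Synaptic vesicle genes rose together as well. Of 20 tested, 19 rose and 0 fell (median 1.78), and Cplx2, a complexin, had 7 of 8 tumors above all glands and was not called (limma FDR 0.0732), but was without TI library 1 or 3 (limma FDR 0.0468 and 0.0318). Cplx1, its relative that clamps vesicle fusion, rose from 0.408 to 0.566 FPKM to 6.65 to 21.9 FPKM (log2 fold change 3.21 ± 0.28; limma FDR 7.36e-07). Syp, the vesicle protein synaptophysin used as a neuroendocrine marker, rose from 1.35 to 1.82 FPKM to 9.98 to 35.8 FPKM. Syt11, a synaptotagmin, rose by 2.87 on the log2 scale. Of 5 tested cholinergic genes, 3 rose: Prima1, which anchors acetylcholinesterase, Chrnb2, a nicotinic receptor subunit, and Ache, the esterase itself. Their log2 fold changes were 2.36, 1.24 and 1.08, and Prima1 lost its call with limma-voom on recovered reads (FDR 0.0944).

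Genes of secretory granules included processing factors that rose, while the granins Chga, Chgb and Scg2 were not called. Of 16 tested genes of this list 8 rose and 0 fell (median 1.41). Without TI library 6, Chgb and Scg2 were called lower (limma FDR 0.0171 and 0.0181). Cartpt, a neuropeptide gene of this list, had the largest rise of all genes without overlap (log2 fold change 5.84 ± 0.62; limma FDR 5.28e-06). It was at 0.126 to 0.317 FPKM in AG and 11.7 to 211 FPKM in TI. Scg5 and Pcsk1n, a chaperone and an inhibitor of prohormone convertases, rose by 2.66 and 2.53 on the log2 scale, with all tumors above all glands. Scg3 and Vgf, which belong to the wider granin family, rose by 2.02 and 1.65, also with all tumors above all glands. Adcyap1, the neuropeptide PACAP, was at 0 or 0.0126 FPKM in AG and at 0.141 to 20.8 FPKM in the tumors (log2 fold change 2.32 ± 0.83; limma FDR 0.0285), and this call was lost without any 1 of AG libraries 1 to 3 (limma FDR 0.0749 to 0.0761). Chga, the main granin of chromaffin granules, was at 71.4, 53.9 and 78.4 FPKM in AG and at 12.6 to 926 FPKM in TI. In 4 tumors it was below and in 4 above all glands (log2 fold change 0.03 ± 1.07, and -0.51 without TI library 6, not called in either case), and 926 FPKM in TI library 6 was the highest value of any tested gene in the 11 libraries. Chgb was below all glands in 7 tumors and at 187 FPKM in TI library 6, against 51.0 to 73.3 FPKM in AG.

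The genes that varied most between tumors were of several kinds. Among the 10 tested genes with the largest standard deviation of log2(FPKM + 1) in TI were Sst, Npy, Chga and Pnmt. Sst, which encodes somatostatin, was listed at 0 in all AG libraries and in TI library 8, and was at 180 FPKM in TI library 4 and 36.7 FPKM in TI library 7. Npy, neuropeptide Y of sympathetic neurons, was at 9.06 to 13.1 FPKM in AG, at 1.39 and 1.95 FPKM in TI libraries 3 and 5, and at 376 and 325 FPKM in TI libraries 6 and 4. Prph, a neurofilament protein of peripheral neurons, ranged from 0.643 to 105 FPKM in TI and was called higher (log2 fold change 4.06 ± 1.02; limma FDR 0.00437), though not with limma-voom on recovered reads (FDR 0.136). Peg10, an imprinted retrotransposon-derived gene, ranged from 2.37 to 102 FPKM in TI around the AG range of 22.0 to 25.8 FPKM. Hbb-bt and Hba-a1, globin genes of red blood cells, reached 356 and 612 FPKM in TI library 4.

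**Figure D3:**
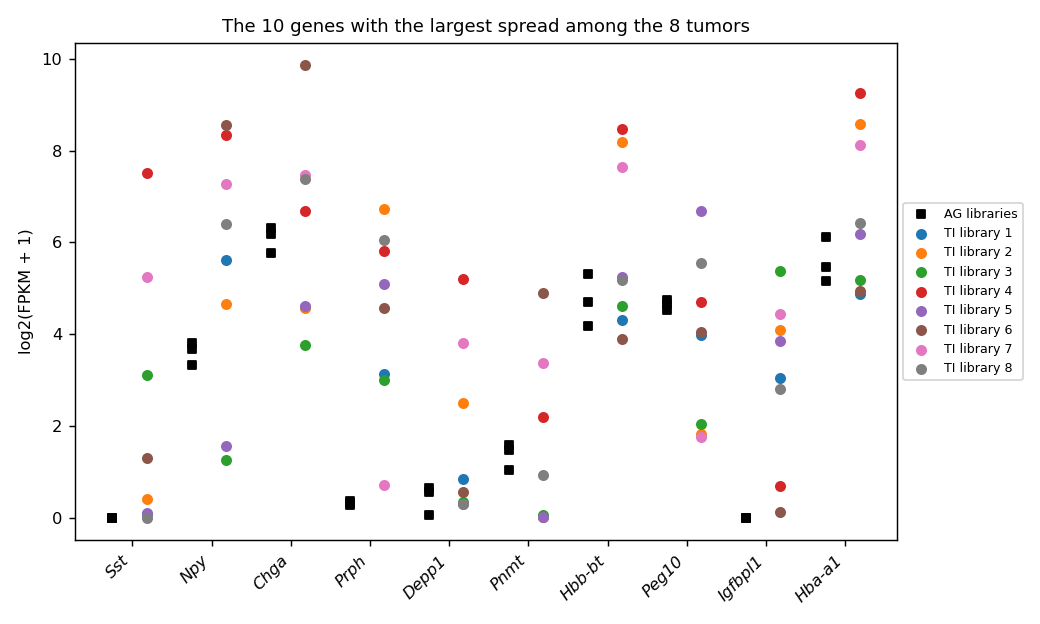
For the 10 tested genes with the largest standard deviation among tumors, the y axis gives log2(FPKM + 1) in each AG library (black squares) and each TI library (1 colour per library). TI library 6 is highest for Chga (926 FPKM) and Pnmt (28.8 FPKM), and TI library 4 for Sst (180 FPKM) and Hba-a1 (612 FPKM).

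Receptors and surface antigens known from neuroblastoma were mostly higher. Of 14 tested, 8 rose and 2 fell (median 1.24). Ret, the receptor kinase of GDNF ligands, was at 0.0435 to 0.0613 FPKM in AG and 2.49 to 6.56 FPKM in the tumors (log2 fold change 2.14 ± 0.21; limma FDR 2.09e-06), and Gfra3, its co-receptor for artemin, rose by 4.33 on the log2 scale and was lowest in TI library 6 (3.51 FPKM). Alk, the receptor kinase mutated in part of human neuroblastomas, was at 0 to 0.00481 FPKM in AG and at 0.905 to 7.03 FPKM in the tumors (log2 fold change 1.64 ± 0.36; limma FDR 0.00177). Ncam1 and L1cam, neural adhesion molecules, rose by 3.03 and 2.48. The falls were St3gal5, the GM3 synthase (14.3 to 16.4 FPKM in AG, 1.66 to 4.23 FPKM in the tumors), and Igf1r, the receptor of insulin-like growth factors (1.79 to 2.00 FPKM in AG, 0.334 to 1.06 FPKM in TI).

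**Figure D4:**
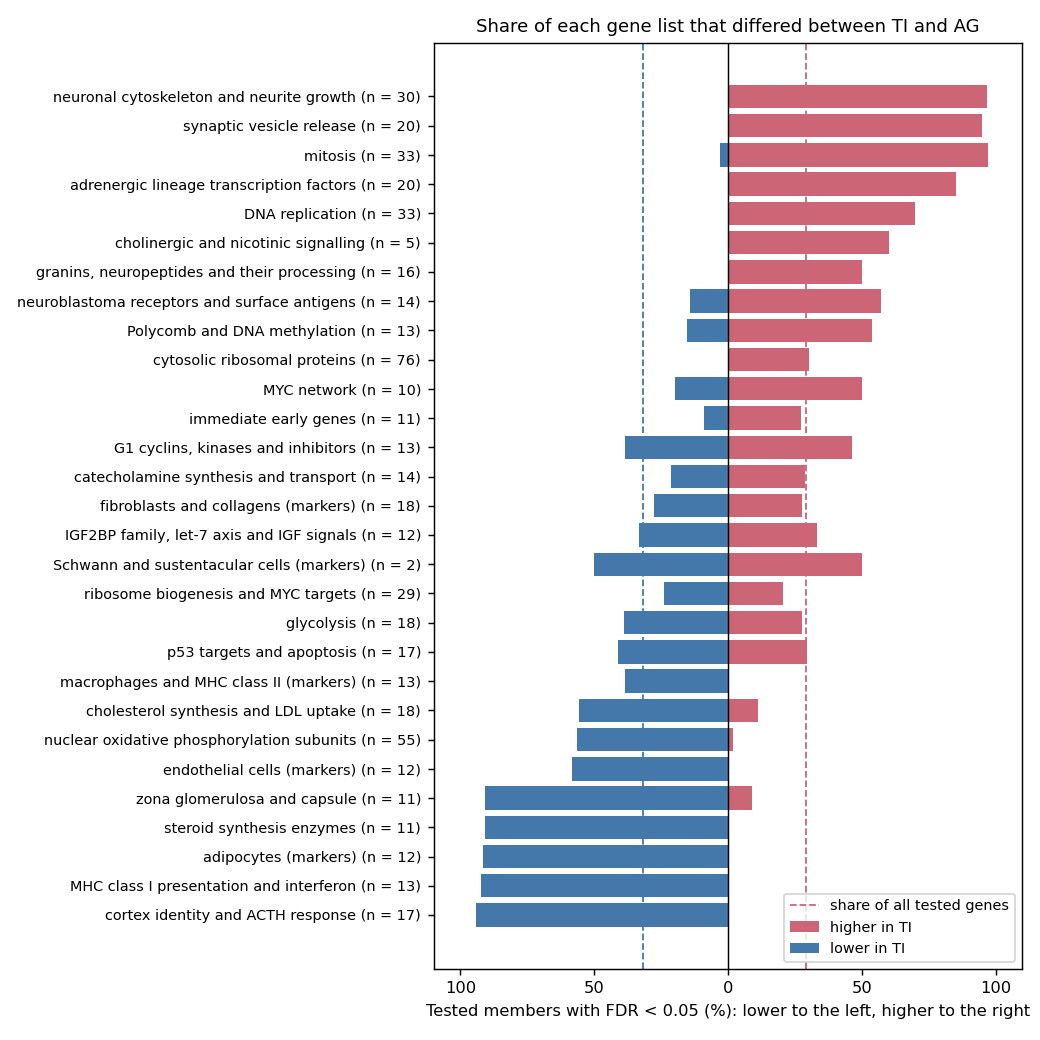
Bars give the percent of tested members of each list that were higher (red, right) or lower (blue, left) in TI at a limma FDR below 0.05, and n is the number of tested members. Dashed lines mark the shares over all 8603 tested genes (29.1% higher, 31.7% lower). Mitosis (97.0% higher) and neuronal cytoskeleton (96.7% higher) stand at one end and cortex identity (94.1% lower) at the other.

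Mitosis genes rose almost throughout, and most DNA replication genes rose. Of 33 tested mitosis genes 32 rose and 1 fell (median 1.63), and of 33 tested DNA replication genes 23 rose and 0 fell (median 0.97). Without AG library 3 the replication count was 15. Ube2c, the ubiquitin-conjugating enzyme of the anaphase-promoting complex (ENSMUSG00000001403, chromosome 2, 164611768 to 164620742), was at 0.523, 0.442 and 0.554 FPKM in AG and 4.60 to 29.0 FPKM in TI (median 12.8). Its log2 fold change was 3.21 ± 0.43 (limma FDR 3.75e-05). Top2a, the topoisomerase of dividing cells, rose from 0.273 to 0.415 FPKM to 1.13 to 16.6 FPKM, and Birc5, the mitotic regulator survivin, from 0.277 to 0.405 FPKM to 2.14 to 14.5 FPKM. The gene that fell was Pttg1, the separase inhibitor securin, from 3.25 to 3.49 FPKM to 0.332 to 2.55 FPKM (log2 fold change -1.21 ± 0.24; limma FDR 0.000814).

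Rrm2, the S-phase subunit of ribonucleotide reductase, had the largest rise of the replication list. It was at 0.918, 0.672 and 0.592 FPKM in AG and 1.94 to 56.5 FPKM in the tumors (log2 fold change 3.14 ± 0.76; limma FDR 0.00339). Cdt1 and Lig1, a licensing factor and a DNA ligase, rose by 2.01 and 1.86 with all tumors above all glands. Mcm5 and Mcm7, subunits of the replicative helicase, were called with 7 of 8 tumors above all glands and TI library 4 below, and Mcm5 lost its call without any 1 of AG libraries 1 to 3 (limma FDR 0.0664 to 0.0726). Pcna, the sliding clamp, was at 6.5 to 7.0 FPKM in AG and 5.49 to 31.4 FPKM in TI. It was not called (limma FDR 0.108) but was without TI library 4 or 6 (limma FDR 0.0396 and 0.0482).

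Tumors were not alike in these genes. The mean log2(FPKM + 1) of the mitosis list was 0.42 to 0.50 in AG, 1.01 in TI library 4, 1.56 in TI library 6 and 1.86 to 2.82 in the other 6 tumors. TI library 4 was also lowest for Rrm2, Ube2c, Top2a and Birc5. No tumor reached down to the glands on the mitosis list.

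Promoters of both lists were examined, with all listed genes counted whether or not they were called. Mitosis genes are known for a CHR element with the letters TTTGAA next to CCAAT boxes, and replication genes for E2F-type letters TTCCCGC or TTGGCGC. In the 300 bases around RefSeq starts (250 before and 50 after, GRCm38.p6, both strands), TTTGAA was found in 23 of 32 mitosis genes with a promoter entry (71.9%), in 5 of 30 replication genes (16.7%) and in 20.2% of all 27025 genes. TTCCCGC or TTGGCGC was found in 4 of 32 mitosis genes (12.5%), 16 of 30 replication genes (53.3%) and 7.79% of all genes. CCAAT was found in 71.9%, 60% and 41.1%, respectively, and in 5 of 8 promoters of steroid synthesis genes (62.5%), a list that fell. The motifs do not overlap in the promoters printed here. These are letter matches and not binding sites. Shown are the 120 bases before the start, 5′ to 3′ on the strand of the gene, for mitosis genes picked for their matches, with TTTGAA and CCAAT or their reverse complements in capitals.
Ube2c, chr2:164769809-164769928, plus strand: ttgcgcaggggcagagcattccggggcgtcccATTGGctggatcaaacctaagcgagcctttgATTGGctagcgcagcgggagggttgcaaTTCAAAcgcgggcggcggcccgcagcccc
Cdc20, chr4:118437344-118437463, minus strand: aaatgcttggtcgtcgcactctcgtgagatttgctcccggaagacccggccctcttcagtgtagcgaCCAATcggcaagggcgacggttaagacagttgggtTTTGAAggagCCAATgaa
Cdk1, chr10:69352913-69353032, minus strand: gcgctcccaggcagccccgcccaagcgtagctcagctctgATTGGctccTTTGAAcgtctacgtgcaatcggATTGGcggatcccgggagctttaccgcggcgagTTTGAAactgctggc
Top2a, chr11:99024190-99024309, minus strand: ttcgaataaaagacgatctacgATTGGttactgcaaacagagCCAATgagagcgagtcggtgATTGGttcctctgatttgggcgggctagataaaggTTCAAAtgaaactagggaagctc
Kif11, chr19:37376262-37376381, plus strand: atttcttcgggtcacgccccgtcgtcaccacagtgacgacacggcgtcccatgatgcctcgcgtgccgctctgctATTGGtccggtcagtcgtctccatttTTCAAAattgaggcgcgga
The nearest TTTGAA match lay 29 bases before the start in Ube2c, 18 in Cdc20, 15 in Cdk1, 23 in Top2a and 19 in Kif11.

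The replication promoters shown next, also picked for their matches, have TTCCCGC or TTGGCGC in capitals over the same window.
Mcm6, chr1:128359706-128359825, minus strand: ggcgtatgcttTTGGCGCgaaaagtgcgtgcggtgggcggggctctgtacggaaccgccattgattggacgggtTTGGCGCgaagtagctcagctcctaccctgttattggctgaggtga
Rrm1, chr7:102441575-102441694, plus strand: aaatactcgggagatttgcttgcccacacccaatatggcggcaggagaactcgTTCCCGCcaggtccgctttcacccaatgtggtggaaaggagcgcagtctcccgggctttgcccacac
The match lay 67 bases before the start in Rrm1 and 46 and 109 bases before it in Mcm6. All 7 genes were called higher in TI, but they were chosen with their values known. Of the 33 tested mitosis genes, 32 were called higher, and whether a motif goes with a rise was not tested. Cdc20, the activator of the anaphase-promoting complex, rose from 1.38 to 1.72 FPKM to 3.12 to 15.7 FPKM. Cdk1, the mitotic kinase, rose from 0.229 to 0.389 FPKM to 1.25 to 8.06 FPKM, and Kif11, a spindle motor, from 0.111 to 0.185 FPKM to 0.393 to 3.82 FPKM. Mcm6, a helicase subunit, was at 2.1 to 2.35 FPKM in AG and 2.17 to 15 FPKM in the tumors (log2 fold change 1.16 ± 0.41; limma FDR 0.0253, and 0.0625 to 0.0748 without any 1 of AG libraries 1 to 3), and Rrm1, the large subunit of ribonucleotide reductase, at 0.921 to 0.969 FPKM and 1.14 to 5.72 FPKM.

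The cyclins and inhibitors of G1 moved in both directions. Of 13 tested, 6 rose and 5 fell (median 0.64), and without AG library 3 there were 3 falls. Ccnd1, cyclin D1, was at 23.6, 19.3 and 22.1 FPKM in AG and 23.6 to 229 FPKM in TI, with 7 of 8 tumors above all glands (log2 fold change 1.97 ± 0.59; limma FDR 0.0119). The other D-type cyclins fell: Ccnd2 from 10.1 to 11.8 FPKM to at most 0.416 FPKM (log2 fold change -3.26 ± 0.11; limma FDR 9.3e-11), and Ccnd3 from 13.2 to 14.2 FPKM to at most 1.87 FPKM. Inhibitors of cyclin-dependent kinases also parted. Cdkn1a and Cdkn1b, p21 and p27, rose by 1.80 and 1.81 on the log2 scale, whereas Cdkn1c, the imprinted p57 of the adrenal cortex, fell from 5.70 to 7.16 FPKM to at most 0.443 FPKM.

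MYC family members moved in opposite directions. Mycn, the family member amplified in high-risk neuroblastoma (ENSMUSG00000037169, chromosome 12, 12986076 to 12992915), was at 0.580, 0.559 and 0.823 FPKM in AG and at 1.57 to 15.6 FPKM in TI (median 7.67). All tumors were above all glands, TI library 4 was lowest, and the log2 fold change was 2.30 ± 0.49 (limma FDR 0.0015). These mice carried no MYCN transgene. Myc was at 4.58, 4.32 and 4.53 FPKM in AG and 0.400 to 1.74 FPKM in the tumors (log2 fold change -1.53 ± 0.20; limma FDR 2.77e-05). Of the 10 tested genes of the MYC network 5 rose and 2 fell, and without any 1 of the AG libraries 1 to 3 the rises were 3. Mxd3 rose and Mxd4, another MAX partner that opposes MYC, fell.

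The ribosome biogenesis genes and MYC targets listed here did not move in one direction. Of 29 tested, 6 rose and 7 fell (median -0.03). These shares of 20.7% and 24.1% were below the 29.1% and 31.7% over all tested genes. The study reported a marked rise of a curated MYC target set in the tumors by gene set enrichment, which used other genes and another method. Nme1, Nop56 and Npm1, a nucleoside kinase and nucleolar proteins, rose by 1.60, 1.22 and 1.01 on the log2 scale, with all tumors above all glands. Hspd1 and Hspe1, the mitochondrial chaperones, fell by 2.41 and 2.04: Hspd1 was at 82.9, 68.8 and 74.0 FPKM in AG and 9.58 to 16.9 FPKM in TI. Of 76 cytosolic ribosomal protein genes, 23 rose and 0 fell (median 0.62). The 30.3% that rose was close to the 29.1% over all genes, and the count was 9, 11 and 8 without AG library 1, 2 or 3 and 45 without TI library 8. Many of these genes have near-identical processed copies, so their values are uncertain.

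Energy metabolism was lower in parts. Of 55 tested nuclear genes of oxidative phosphorylation, 31 fell and 1 rose (median -0.62). The riser was Atp5g1, a subunit of the ATP synthase ring, which lost its call without AG library 1, 2 or 3 or TI library 7 (limma FDR 0.0526 to 0.12). Without AG library 2 or 3 the falls were 18, and AG library 1, which was lowest for the fat markers, was also the lowest gland for these genes. Sdha, the catalytic subunit of succinate dehydrogenase, was at 25.4, 32.9 and 33.8 FPKM in AG and 4.49 to 8.93 FPKM in the tumors (log2 fold change -2.19 ± 0.18; limma FDR 4.16e-07), and Sdhb, its iron-sulfur subunit, was at 25.7 to 34.9 FPKM and 7.60 to 13.2 FPKM. Of 18 cholesterol synthesis and uptake genes 10 fell and 2 rose (median -0.41), namely Sqle and Srebf2, an enzyme and the regulator of the pathway. Neither was called without any 1 of AG libraries 1 to 3 or TI libraries 1, 4, 5, 6 and 8, and without TI library 3 only Srebf2 was. Dhcr7, which catalyses a late step, fell by 3.10 on the log2 scale.

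IGF and let-7 related genes included rises and falls. Of 12 tested genes of this list, 4 rose and 4 fell (median 0.44). These shares of 33.3% each were close to the 29.1% and 31.7% over all tested genes. Of 23 listed genes, 11 were below the filter, Lin28b, Hmga2, Igf2 and Igf2bp1 to Igf2bp3 among them. Hmga1, a chromatin protein of embryonic cells and a let-7 target, was at 2.46, 2.21 and 1.88 FPKM in AG and 11 to 21.9 FPKM in the tumors (log2 fold change 2.37 ± 0.21; limma FDR 8.14e-07). Hmga2, its relative, was at 0.138 FPKM on average in AG and 0.00102 FPKM in TI (exact permutation p = 0.00606). Igfbp4 and Igfbp5, which bind insulin-like growth factors, fell by 2.21 and 1.86 with all tumors below all glands. Plagl1, Peg3 and Dlk1, imprinted genes of fetal growth, rose by 1.39, 1.21 and 1.24, and Dlk1 lost its call without AG library 2 (limma FDR 0.0664). Lin28b, a let-7 inhibitor, was near 0 in both groups (0.000343 FPKM in AG and 0.00225 FPKM in TI; exact permutation p = 0.485). The study reported a modest to strong rise of Lin28b in its tumors, shown as log2 fold change against wildtype glands, which does not show the level.

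Antigen presentation genes were lower in the tumors. Of 13 tested genes of MHC class I and the interferon response, 12 fell and 0 rose (median -1.21). B2m, the invariant chain of class I, was at 127, 104 and 116 FPKM in AG and 7.38 to 69.9 FPKM in the tumors (log2 fold change -2.41 ± 0.48; limma FDR 0.000934). H2-K1, a class I heavy chain, was at 26.3 to 31.9 FPKM in AG, at 1.65 to 14.9 FPKM in 7 tumors and at 51.0 FPKM in TI library 6, above all glands. Its call (log2 fold change -2.03 ± 0.71; limma FDR 0.0265; without TI library 6, -2.43 and 0.000407) was lost without AG library 1, 2 or 3 (limma FDR 0.0655 to 0.0805). H2-D1, another heavy chain, was likewise highest in TI library 6 (85.3 FPKM) and was not called (limma FDR 0.196, and 0.0125 without TI library 6).

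Markers of immune and vessel cells were lower or not called. Of 13 tested macrophage and MHC class II markers, 5 fell (38.5%) and 0 rose (median -0.42). Over all tested genes, 31.7% fell and 29.1% rose. The falls were in class II genes such as Cd74, the invariant chain (42.4 to 64.3 FPKM in AG, 0.580 to 8.46 FPKM in the tumors), and in Csf1r, whereas the complement genes C1qa, C1qb and C1qc were not called (C1qa at 9.89 to 18.8 FPKM in AG and 4.39 to 21.8 FPKM in TI). None of 15 lymphocyte markers reached the filter. Of 12 tested endothelial markers, 7 fell and 0 rose (median -1.02), and all 12 fell without TI library 4. Kdr, the main VEGF receptor, was at 3.59 to 4.09 FPKM in AG, at 1.27 FPKM in TI library 4 and at most 0.433 FPKM in the other tumors. The summed level of the 15 endothelial markers was 56.5 to 61.0 FPKM in AG and reached 93.6 FPKM in TI library 4, against a TI median of 15.4 FPKM.

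Fibroblast and matrix genes did not share a direction. Of 18 tested, 5 rose and 5 fell (median 0.12), and the rises were 2 without AG library 2 and 3 without AG library 3. The shares of 27.8% each did not exceed the 29.1% and 31.7% over all tested genes. Dcn and Lum, small proteoglycans of connective tissue, fell by 2.40 and 1.99 on the log2 scale. Fn1, fibronectin, rose from 0.458 to 0.724 FPKM to 1.51 to 17.9 FPKM, and Acta2, smooth muscle actin, from 1.29 to 1.87 FPKM to 2.16 to 37.8 FPKM with TI library 4 highest, though not called without AG library 2 or 3 (limma FDR 0.0596 and 0.0631). Sparc, an abundant matrix protein, fell from 95.5 to 105 FPKM to 8.93 to 82.7 FPKM, again with TI library 4 highest.

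**Figure D5:**
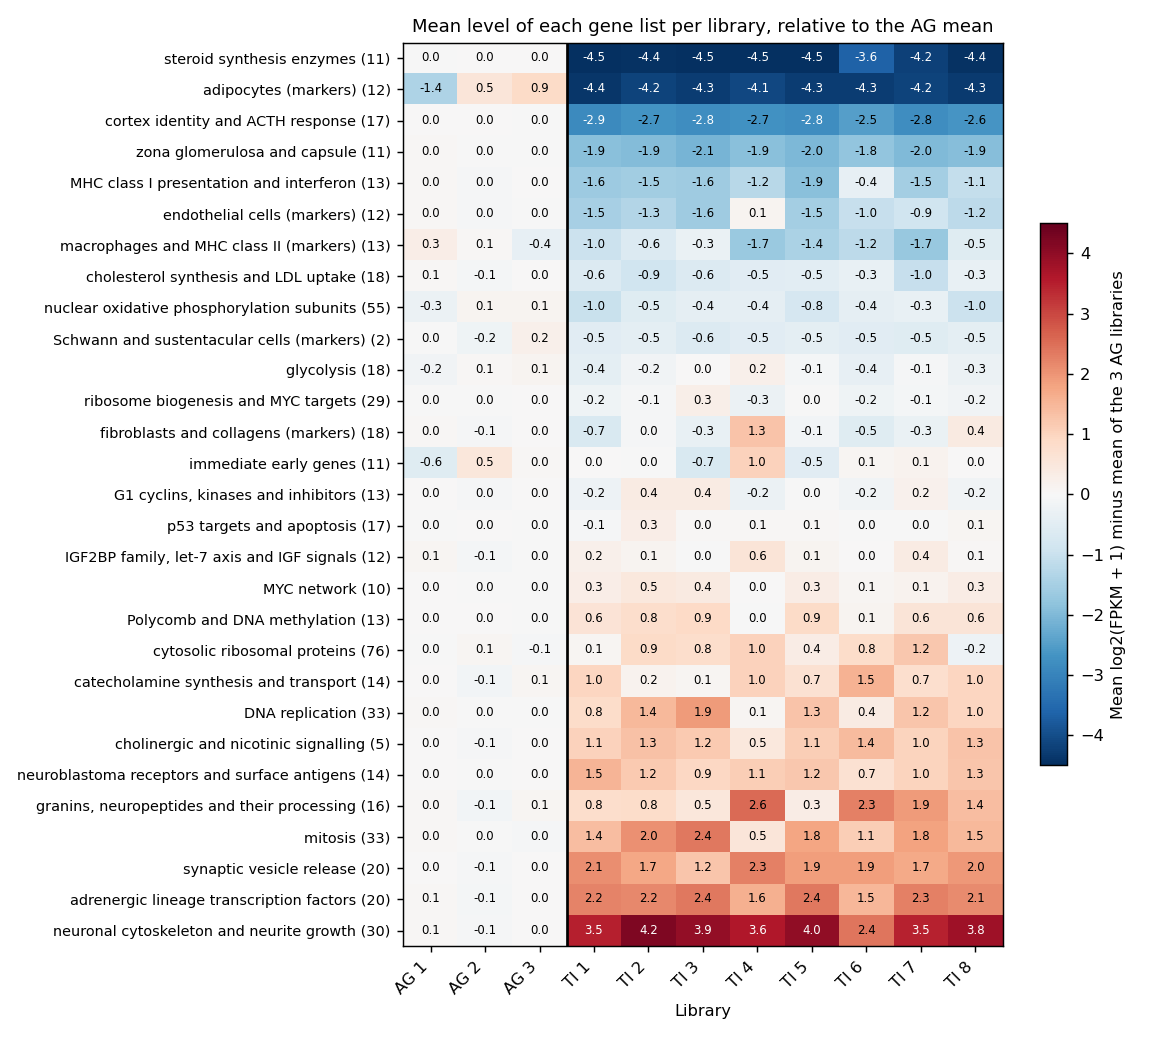
Each cell gives the mean log2(FPKM + 1) of the tested members of a list (number in parentheses) in 1 library, minus the mean of the 3 AG libraries. Steroid and neuronal lists differ from AG in all 8 tumors, the mitosis list is lowest among tumors in TI library 4, the neuronal list in TI library 6, and the endothelial list is at the AG level only in TI library 4 (2.35, with 2.21 to 2.28 in AG, before subtraction).

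The study's own adrenergic (ADRN) and mesenchymal (MES) gene lists were counted in the same way. Of 270 tested ADRN genes, 188 rose and 19 fell (median 1.09), and of 309 tested MES genes, 33 rose and 168 fell (median -0.64). The study used these lists on these samples, so they are no independent evidence of a direction. The mean log2(FPKM + 1) of ADRN genes was 1.26 to 1.32 in AG and 2.26 to 2.67 in TI, with TI library 6 lowest, and that of MES genes was 2.29 to 2.31 in AG and 1.5 to 2.08 in TI, with TI library 4 highest.

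The most abundant transcripts changed in identity. Among the 10 genes with the highest mean level, AG and TI shared Eef1a1, a translation elongation factor, and Ubb, a ubiquitin gene. In AG the list held Car3, Cfd, Hsd3b1, Star, Akr1d1 and Adh1, genes of fat and cortex. In TI it held Ptma, Tmsb10 and Uchl1, of which Tmsb10, an actin-binding thymosin, rose from 16.1 to 18.8 FPKM to 122 to 659 FPKM (log2 fold change 4.01 ± 0.44; limma FDR 6.87e-06). Ptma, prothymosin alpha, rose from 86.5 to 88.2 FPKM to 190 to 656 FPKM. Nxf3, an X-linked member of the mRNA export factor family, was listed at 0 in all 3 AG libraries and was at 7.69 to 51.4 FPKM in all 8 tumors. Its neighbour on the X chromosome, Bex2, rose from 2.05 to 2.64 FPKM to 50.6 to 132 FPKM (log2 fold change 4.43 ± 0.28; limma FDR 3.97e-08). Both are among the 15 largest rises without overlap.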

How the data were processed

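Poly(A)-enriched, strand-specific RNA-seq of 8 IGF2BP1 tumors (TI) and 3 adrenal glands of CRE - mice (AG) was analysed from a table of the whole series. Per the labels and methods, the authors trimmed reads with cutadapt 2.8, aligned them with HISAT2 2.1.0 to mm39, counted them with featureCounts 2.0.0, ran ComBat-seq to remove batch effects from the counts, and used TMM factors of edgeR 3.40. The authors deposited the result as FPKM of protein-coding genes. The authors' deposited columns of log2 fold change, p-value and FDR were not used. The batch correction replaces counts by model quantiles, so it can change both levels and spread. Multiplied by gene length, FPKM gave whole reads for 100% of entries within 0.01 reads, 12468968 to 21353172 per library, and statements on these reads cover counting error only. Libraries were grouped by column name, and per the methods, replicates of the mouse experiments are individual mice, so p-values measure the spread between mice and any technical spread together.

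Genes that reached 1 FPKM in 3 or more of the 11 libraries were tested with limma 3.58.1 in R 4.3.3 (lmFit, eBayes with trend) on log2(FPKM + 1), with Benjamini-Hochberg adjustment over 8603 genes. The fit takes 1 spread per gene for both groups. SE and FDR can therefore be too small where AG spread more than TI, and too large where TI spread more. The code was tested on simulated data. Genes below the filter were compared by exact two-sided permutation over 165 assignments, and 130 such genes were tested, without adjustment. Members and gene lists were chosen with earlier results of these data known, and lists are described by counts and medians, without a test. Named genes are the 15 largest rises and falls without overlap, up to 6 called members per list by size, the 10 genes with the largest spread in TI, the 10 highest in each group, cell type markers, and members that were not called; some genes that these rules name are not reported here. Y-linked genes, Kcnk9, Pttg1, Igf1r, Maob, Atp5g1, Sqle, Srebf2, Cdc20, Cdk1, Kif11, Mcm6 and Rrm1 were named after their values were seen. Positions are from GENCODE on GRCm39 (21687 genes matched), promoter letters from RefSeq on GRCm38.p6, and the builds were not mixed. Alternatives were other filters, a pseudocount of 0.1, rescaling, limma-voom on recovered reads, group-wise weights, all 24 libraries, a minimum fold change and leaving out libraries.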

Additional observations from a re-analysis of the deposited data

Results flagged for a closer look

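Among the 8 tumors, 225 named genes and 31 list means were examined for a single library far from the rest on the log2(FPKM + 1) scale by Dixon's ratio of gap to range at its 95% critical value. This gave 41 values, and chance alone gives about 1 in 20 groups. TI library 6 held 27 of them (19 highest, 8 lowest) and TI library 4 held 9 (8 highest, 1 lowest).

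TI library 6 was highest for cortex genes: Star at 1.69 FPKM, Cyp11a1 at 0.367, Cyp21a1 at 2.94, Cyp11b1 at 1.64, Fdx1 at 3.11, Akr1d1 at 0.869, Akr1b7 at 4.58, Nr5a1 at 0.130, Mc2r at 0.134, Agtr1a at 1.05, Wnt4 at 0.136, Abcb1b at 0.255, Mgarp at 1.22, Adh1 at 5.09 and Cyp2f2 at 0.412 FPKM. It was also highest for Scd1 (1.18), Car3 (0.106) and Pttg1 (2.55 FPKM), and the mean log2(FPKM + 1) of its steroid synthesis list was 1.68. The same library was lowest for neurite genes and a receptor: Gap43 at 5.84, Basp1 at 17.6, Tagln3 at 15.2, Stmn2 at 6.45, Mapt at 3.07 and Gfra3 at 3.51 FPKM. Its mean log2(FPKM + 1) was 3.48 for the neuronal cytoskeleton list and 2.26 for the study's ADRN genes.

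TI library 4 was highest for endothelial genes, with Tek at 0.589, Kdr at 1.27, Eng at 8.18, Tie1 at 4.8 and Emcn at 2.06 FPKM and a list mean of 2.35, and for Col6a1 (10.4 FPKM) and Adipoq (0.193 FPKM). Its cholinergic list mean of 0.89 was lowest. Single values in other libraries were Syn1 at 4.39 FPKM in TI library 3 (lowest), St3gal5 at 1.66 FPKM in TI library 2 (lowest), Rpl7a at 17.2 FPKM in TI library 1 (lowest), Retn at 0.0254 FPKM in TI library 7 (highest) and the p53 list mean of 2.15 in TI library 2 (highest).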

How the results depend on the processing

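There were 2506 genes higher in TI than in AG and 2723 genes lower in TI than in AG. Requiring 1 FPKM in every library left 4390 genes, with 1099 higher and 1054 lower, and a log2 fold change of at least 1 left 1021 higher and 1169 lower, because both are stricter. Without a filter, 18561 genes were tested and 4993 were lower (3313 higher). Leaving out each library in turn gave 1918 to 2700 higher and 2300 to 2861 lower genes. The other alternatives gave 2342 to 3218 higher and 2605 to 3231 lower genes, and without TI libraries 4 and 6, an alternative chosen after seeing the data, there were 2846 and 2999. No gene was called with the opposite sign in any of these fits.

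Of 196 named genes that were called, 10 lost the call with all 24 libraries setting the spread, 14 with limma-voom and 19 to 23 without an AG library, against 2 to 5 without a TI library. No paired analysis was made, because the glands came from CRE - mice and the tumors from CRE + mice. With 3 glands, the AG spread is poorly known, all AG libraries are from 1 run, and Y-linked reads differed between groups. Depth limits short genes of low level most, since the reads behind a given FPKM grow with gene length.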

Other observations

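Genes of chromatin repression included rises and falls. Of 13 tested Polycomb and DNA methylation genes, 7 rose and 2 fell (median log2 fold change 0.50), but the rises were 3, 2 and 2 without AG library 1, 2 or 3, and the falls were 1 without AG library 1, 2 or 3 or TI library 5 or 7. Uhrf1, which guides maintenance methylation, was at 0.389 to 0.505 FPKM in AG and 1.4 to 14.9 FPKM in the tumors (log2 fold change 2.41 ± 0.51; limma FDR 0.00139). Cbx2, a Polycomb subunit, rose from 0.542 to 0.567 FPKM to 0.665 to 4.5 FPKM. Of 17 tested p53 targets and apoptosis genes, 5 rose (29.4%) and 7 fell (41.2%), with 29.1% and 31.7% over all tested genes (list median -0.22). Bbc3, a pro-apoptotic p53 target, rose by 1.38 on the log2 scale, and Ccng1 and Gadd45a fell by 0.81 and 0.86. Trp53 itself was not called (log2 fold change 0.11). Of 18 tested glycolysis genes, 5 rose (27.8%) and 7 fell (38.9%), again with 29.1% and 31.7% over all tested genes (list median 0.06). There were 3 rises without AG library 2 and 4 falls without AG library 2 or 3. Pgam1 and Aldoa, glycolytic enzymes, fell by 1.74 and 1.39, and Hk1, a hexokinase, rose by 1.11.

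Immediate early genes differed between glands. Egr1 was at 0.380, 1.33 and 1.04 FPKM in the 3 AG libraries and Fos at 0.0317, 0.194 and 0.0761 FPKM, and the summed level of the 16 listed genes was 23.0 to 67.1 FPKM in AG and 15.7 to 102 FPKM in TI. Of 11 tested, 3 rose (27.3%) and 1 fell (9.09%), with 29.1% and 31.7% over all tested genes. The rises were 0 without AG library 1, 2 or 3. The falls were 3 without AG library 1 and 2 without TI library 4. Of 2 tested Schwann cell markers, 1 fell and 1 rose, namely Mbp, which was not called without AG library 1 or 2. S100b, below the filter, was at 0.946 FPKM on average in AG and 0.0140 FPKM in TI (exact permutation p = 0.00606).

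Fold changes differed by chromosome. The median log2 fold change of tested genes was highest on chromosome 12 (0.29; 44.6% of 305 genes higher) and chromosome 17 (0.26), and lowest on chromosome 9 (-0.30; 46.7% of 465 genes lower) and chromosome 19 (-0.26). These are values of all tumors against glands of another cell composition, and the part of copy number was not tested.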
